A study of Mus musculus with 18 samples.

Results

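The genes described here are those that arm killer lymphocytes: the killer cell lectin-like receptors (Klr), the granzymes (Gzm), perforin (Prf1), the natural killer (NK) cell receptor Ncr1 and the granule protein Nkg7. They were taken by symbol from transcript clusters that carried a single gene name, and 35 of 27030 genes on the arrays met that rule: 24 Klr genes, 8 granzymes, Prf1, Ncr1 and Nkg7. Each was measured by 1 cluster. Expression was measured on whole-transcript arrays in 18 mammary tissues of female C57Bl/6 mice, 6 per group: M/D-driven tumors, hyperplastic glands and normal glands. Mice of the tumor and hyperplastic groups had both received M, medroxyprogesterone acetate (MPA, a progestin), as a 50 mg pellet that released over 90 days and was implanted at an age of 6 to 9 weeks. They had also received D, 7,12-dimethylbenz[a]anthracene (DMBA, a carcinogen), in 6 gavages of 200 uL at 5 mg/mL. Tumors were taken at a size of 0.7 to 1 cm2. Hyperplastic glands were exposed glands that had not developed a tumor, and mice of the normal group had met neither agent (their age is not stated). Which mouse gave which sample is not labelled, so p-values here measure the spread between these samples.

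Killer lymphocytes, that is NK cells and cytotoxic T cells, destroy tumor or infected cells by releasing granules. Perforin opens the membrane of the target, and granzymes are the serine proteases that enter through it and start its death. Whether an NK cell strikes is set by a balance of activating and inhibitory receptors, many of which are lectin-like proteins encoded side by side in the NK gene complex on mouse chromosome 6.

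Sequence upstream of the gene start was taken from the RefSeq promoter table (GRCm38.p6), in which 31 of the 35 genes had an entry. The 250 bases before the start were searched on both strands for a core that T-box factors such as T-bet and Eomes are known to recognise (GGTGTG, or CACACC on the other strand) and for a core of Runx factors (TGTGGT, or ACCACA). Both families control genes of killer lymphocytes. The promoters below belong to a receptor, a granzyme and the NK receptor Ncr1 that were lower in tumors and had an entry; they were picked after the changes had been seen. Capitals mark every match to either core, and each sequence runs 5′ to 3′ on the strand of the gene.
Klrb1f (chr6:129045651-129045900, plus strand): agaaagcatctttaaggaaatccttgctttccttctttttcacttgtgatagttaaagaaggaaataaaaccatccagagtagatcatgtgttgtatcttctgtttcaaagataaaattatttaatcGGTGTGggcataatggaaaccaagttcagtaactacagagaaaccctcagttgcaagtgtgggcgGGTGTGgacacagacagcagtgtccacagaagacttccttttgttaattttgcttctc
Gzma (chr13:113100982-113101231, minus strand): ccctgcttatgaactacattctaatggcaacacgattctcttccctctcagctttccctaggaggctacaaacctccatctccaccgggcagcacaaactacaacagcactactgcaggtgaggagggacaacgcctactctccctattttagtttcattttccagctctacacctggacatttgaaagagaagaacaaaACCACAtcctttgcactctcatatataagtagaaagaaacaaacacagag
Ncr1 (chr7:4337465-4337714, plus strand): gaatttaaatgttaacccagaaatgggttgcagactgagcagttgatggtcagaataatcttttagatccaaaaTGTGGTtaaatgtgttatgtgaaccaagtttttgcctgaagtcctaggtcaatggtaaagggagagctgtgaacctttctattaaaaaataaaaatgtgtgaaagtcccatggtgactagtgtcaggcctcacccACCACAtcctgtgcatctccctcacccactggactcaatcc
Klrb1f held 2 matches to the T-box core and 0 to the Runx core. Gzma held 1 Runx match, and Ncr1 held 2. Across the killer genes the T-box core was found in 6 of 31 promoters, against 16.2% of 27025 promoters in the table. The Runx core was found in 16 of 31, against 14.2% of all promoters, and matches of the 2 cores did not overlap in any of the 31. These promoters are not independent, because neighbouring genes are copies of each other: the upstream bases were 83.3% identical between Klra3 and Klra9, 82.4% between Gzmf and Gzmg and 70.8% between Klrc2 and Klrc3. A match is a string of letters and was not tested as a binding site.

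Most killer genes gave little signal in mammary tissue. Olfactory receptor genes, hardly used in a mammary gland, gave the detection level: the 95th percentile of the means of 1078 of them was 5.36 on the log2 scale, and 8 of the 35 genes had a mean above it over all arrays: Klrg2, Nkg7, Klrb1f, Prf1, Gzma, Gzmb, Klrd1 and Ncr1. The other 27 lay below, and 20 did not exceed the level on any array. By group mean, 7 genes exceeded the level in the tumor group, and 8 did so in each of the gland groups. Klrd1 and Ncr1 were the genes above it in both kinds of gland but not in tumors. Gzmc was above it by group mean in tumors alone (5.38), with a tumor median of 5.24 and 2 of 6 tumors above the level. Where a group mean lay below the level, the array's floor limits the log2 change and a fold is left out.

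On the arrays' common scale 11 of 24 Klr genes were lower in tumors than in normal glands (median -0.11 over the 24). Of the rest, 1 was higher and 12 were not called. Of the 24, 3 had a mean above the detection level, and Klrb1f and Klrd1 were those of them called lower. Of the 8 granzymes 1, Gzma, was lower and 7 were not called (median 0.08 over the 8). Prf1, Nkg7 and Ncr1 were lower as well. When arrays were centred on pan-leukocyte genes, the change of 8 of the 10 genes plotted by array below turned in sign. Among these, Klrk1, Nkg7 and Prf1 went from called lower to called higher, and the others were not called on both scales. So centred, 94.8% of all genes were called higher in tumors, so that turn is not particular to killer genes. On the common scale the largest falls were those of Klrb1f and Klrd1, at 1.66 and 1.65 log2 units. In all, 15 of 35 genes were called lower in tumors (limma, adjusted p under 0.05 over all genes), that is 42.9%, against 12.7% of all 27030 genes. In the other direction 1 gene, Klra2, was called higher, against 19.5% of all genes. Of the 15 lower genes, Klrb1f, Klrd1, Gzma, Prf1, Nkg7 and Ncr1 had a mean above the detection level over all arrays. The others, like Klra2, lay below it. All 6 tumors lay below all 6 normal glands for 12 of the 35 genes, against 7% of all genes, and above them for 1 gene, against 9.24%. The median change was -0.09 over the 35 genes and 0.04 over all genes. Of all genes called in this comparison 60.6% were higher in tumors, a share that became 15.8% when arrays were centred on 14 reference genes. The median of all genes then moved to -0.16, and 27 of the 35 killer genes were called lower, beside 44.2% of all genes. On the common scale 7 of the 14 reference genes were themselves called higher in tumors and 2 lower (median 0.24). Centring on them therefore shifts all genes down. Fewer killer cells in a tissue and less of these transcripts per cell cannot be told apart in bulk RNA.

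**Figure D1:**
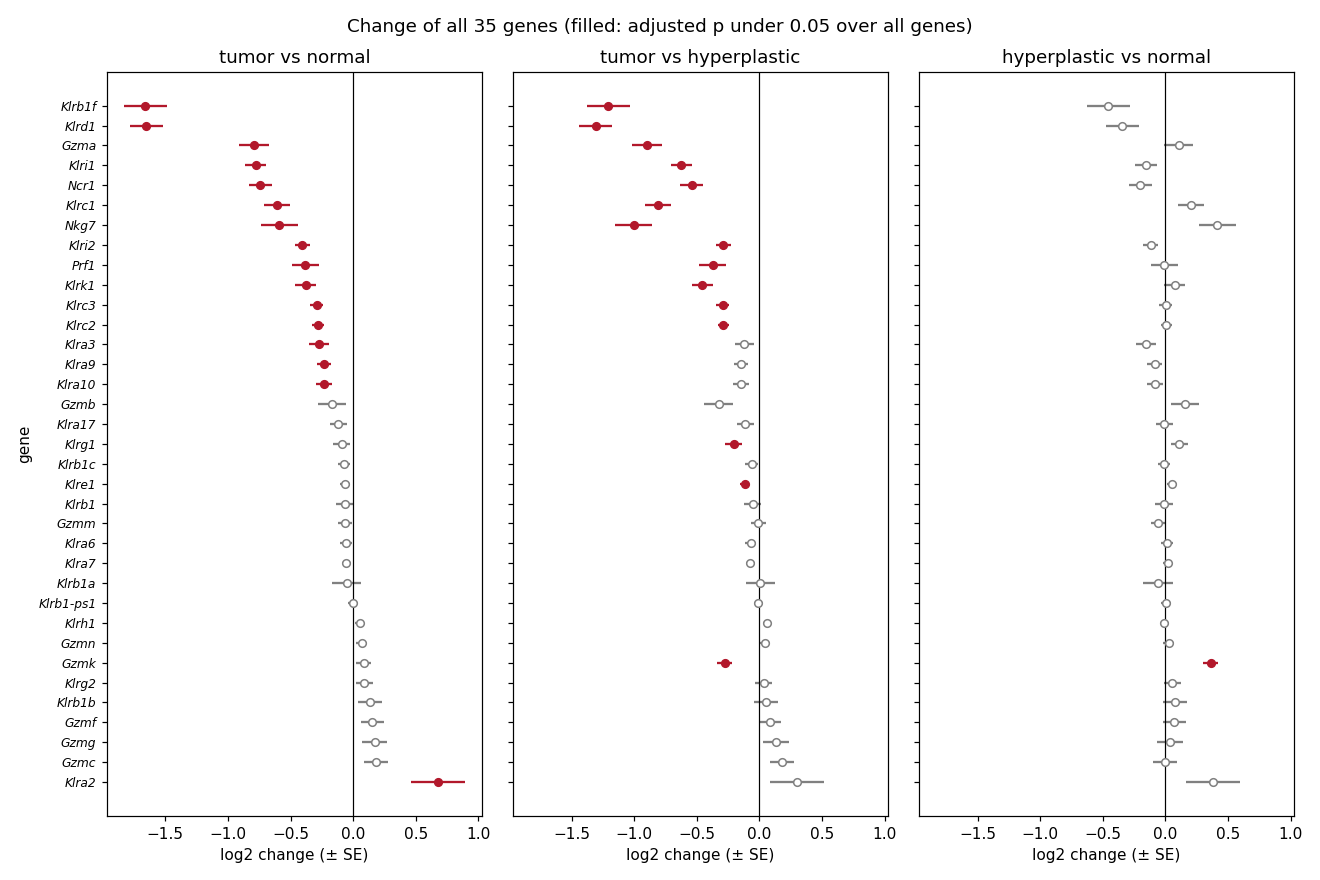
Log2 change (x axis, with the SE from limma) of each of the 35 genes in the 3 comparisons, tumor against normal, tumor against hyperplastic and hyperplastic against normal. Filled points passed an adjusted p under 0.05: 15 lower and 1 higher, 15 lower and 0 higher, and 0 lower and 1 higher. Under centring on pan-leukocyte genes the change of 8 of 10 named genes turned in sign, called or not, in each of the tumor comparisons. So centred, 94.8% of all genes were called higher against normal glands and 96.0% against hyperplastic glands.

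Negative control probe sets were also more often lower than higher in tumors. Among 5222 negative control probe sets, 12.5% were lower in tumors than in normal glands and 1.72% were higher at the p that marked a called gene, and their median change was -0.12. The 5th percentile of their changes was -0.77, and 4 of the 15 falls went beyond it: Klrb1f, Klrd1, Gzma and Klri1. Against hyperplastic glands 4.17% of the control probe sets were lower, the 5th percentile was -0.56, and 6 of 15 falls went beyond it, those of Klrd1, Klrb1f, Nkg7, Gzma, Klrc1 and Klri1. How far the array's background took part in the smaller falls was not tested.

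Klrd1 encodes CD94, the chain that pairs with NKG2 proteins to read the nonclassical MHC molecule Qa-1. Its level had a lowest, median and highest value of 4.54, 4.72 and 4.98 in tumors, 5.52, 6.10 and 6.30 in hyperplastic glands, and 5.95, 6.49 and 6.61 in normal glands. Every tumor was below every gland, and no tumor reached the detection level, which all 12 glands exceeded. The change was -1.65 against normal glands (SE 0.13, adjusted p = 9.61e-08 by limma) and -1.31 against hyperplastic glands (SE 0.13, adjusted p = 3.24e-06). Hyperplastic and normal glands differed by -0.35, which did not pass (adjusted p = 0.228).

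The NKG2 partners of CD94 and their relatives fell with it, though each lay below the detection level on average. Klrc1, the inhibitory NKG2A, changed by -0.61 against normal glands (adjusted p = 0.000176) and by -0.81 against hyperplastic glands (adjusted p = 3.15e-05). Klrc2 and Klrc3, the activating relatives, changed by -0.28 and -0.29 against normal glands and by -0.29 each against hyperplastic glands, with tumors below all 12 glands for each of the 3 Klrc genes. Klrk1 encodes NKG2D, an activating receptor for stress-induced ligands. It ranged from 4.38 to 4.68 in tumors (median 4.53), from 4.68 to 5.31 in hyperplastic glands (median 4.94) and from 4.77 to 5.04 in normal glands (median 4.91). All of these values were under the detection level, and the tumors did not overlap either kind of gland (the highest tumor and the lowest hyperplastic gland both round to 4.68). The change was -0.38 against normal glands (SE 0.08, adjusted p = 0.00162) and -0.46 against hyperplastic glands (SE 0.08, adjusted p = 0.000767).

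**Figure D2:**
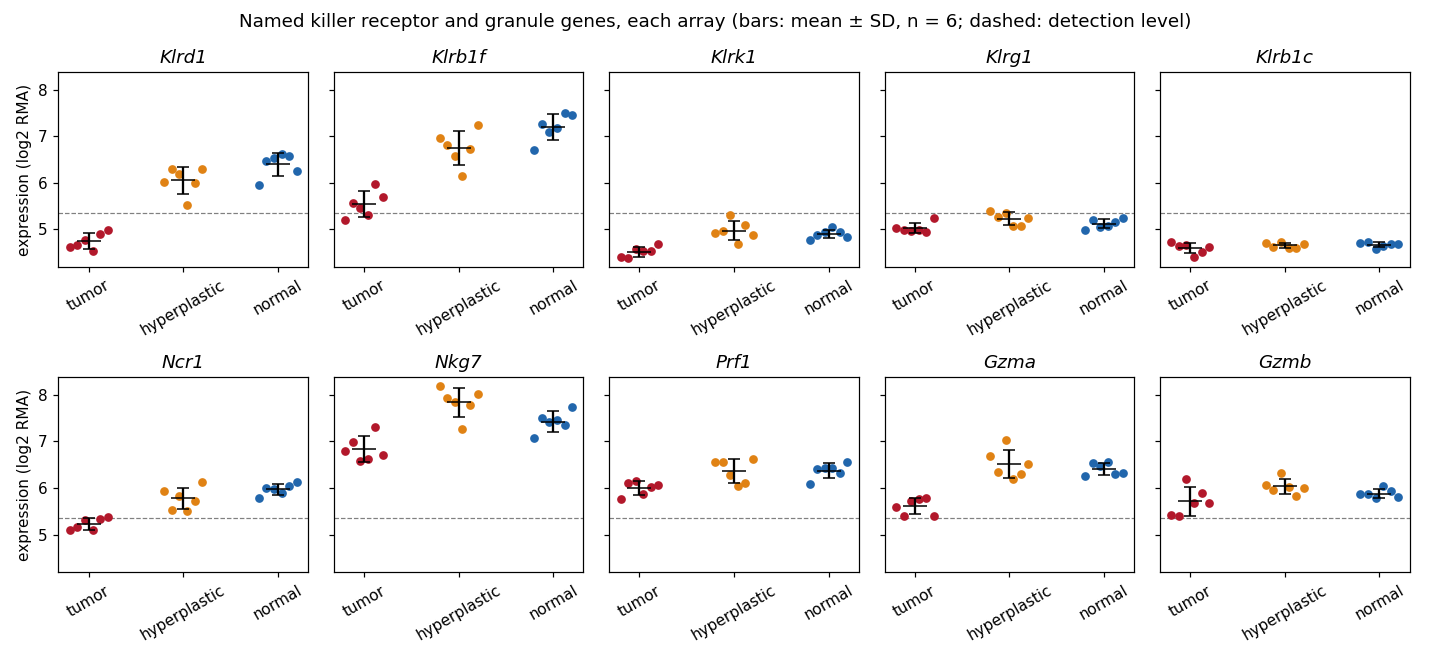
Level (log2 RMA, y axis) of 10 named genes on each array, with tumors left, hyperplastic glands in the middle and normal glands right; bars give the mean and SD of 6 arrays and the dashed line the detection level of 5.36. Tumors lie below all glands for Klrd1, Klrb1f, Klrk1, Ncr1 and Gzma, and overlap glands for Klrg1, Klrb1c, Nkg7, Prf1 and Gzmb.

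Klrb1f, a receptor of the NKR-P1 family that binds Clec2 lectins, was lower in tumors against both kinds of gland. It had a lowest, median and highest level of 5.21, 5.51 and 5.98 in tumors, 6.15, 6.77 and 7.23 in hyperplastic glands, and 6.71, 7.21 and 7.50 in normal glands. No tumor reached the lowest gland, and 4 of 6 tumors stayed above the detection level. Klrb1f was 3.16-fold lower in tumors than in normal glands (log2 change -1.66, SE 0.17, adjusted p = 1.14e-06) and 2.31-fold lower than in hyperplastic glands (-1.21, SE 0.17, adjusted p = 7.75e-05). Between hyperplastic and normal glands the change of -0.46 did not pass (adjusted p = 0.21).

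None of the other NKR-P1 genes was called. Klrb1c encodes NK1.1, the antigen by which NK cells of C57Bl/6 mice are usually recognised, and its cluster lay under the detection level on all 18 arrays. Its lowest, median and highest values were 4.41, 4.63 and 4.73 in tumors, 4.60, 4.65 and 4.73 in hyperplastic glands, and 4.58, 4.69 and 4.72 in normal glands. The groups overlapped, and the change against normal glands was -0.07 (SE 0.05, adjusted p = 0.283, 95% interval -0.17 to 0.02). Klrb1, Klrb1a, Klrb1b and the pseudogene Klrb1-ps1 differed by -0.07, -0.05, 0.13 and -0.00081 between tumors and normal glands, with no call in any comparison.

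Further along the complex, Klri1 and Klri2 were also lower in tumors. In rodents their products pair with Klre1, Klri1 forming an inhibitory and Klri2 an activating receptor. Klri1 changed by -0.78 against normal glands (SE 0.09, adjusted p = 2.28e-06) and Klri2 by -0.41 (SE 0.06, adjusted p = 4.39e-05). Klre1 itself had a difference of -0.07 against normal glands (adjusted p = 0.213) and was called lower against hyperplastic glands at a change of -0.12 (adjusted p = 0.0414). All 3 lay below the detection level on every array.

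Klrg1, an inhibitory receptor for cadherins found on mature killer cells, moved little. It ran from 4.95 to 5.23 in tumors (median 5.00), from 5.07 to 5.38 in hyperplastic glands (median 5.25) and from 4.98 to 5.25 in normal glands (median 5.12), so the groups overlapped. The change against normal glands was -0.09 (SE 0.07, adjusted p = 0.317). Against hyperplastic glands the fall of 0.20 was called at an adjusted p of 0.0357, with 5 of 6 tumors below the hyperplastic mean, but adjusted p lay between 0.0609 and 0.0903 in 9 fits that each left out 1 array (tumor 1, 2, 3, 4 or 5, or hyperplastic 1, 2, 3 or 6). Klrg2 was above the detection level on all 18 arrays, between 6.73 and 7.15 in tumors, 6.74 and 6.99 in hyperplastic glands and 6.69 and 6.90 in normal glands. These ranges overlapped, and its change against normal glands was 0.09 (adjusted p = 0.349).

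**Figure D3:**
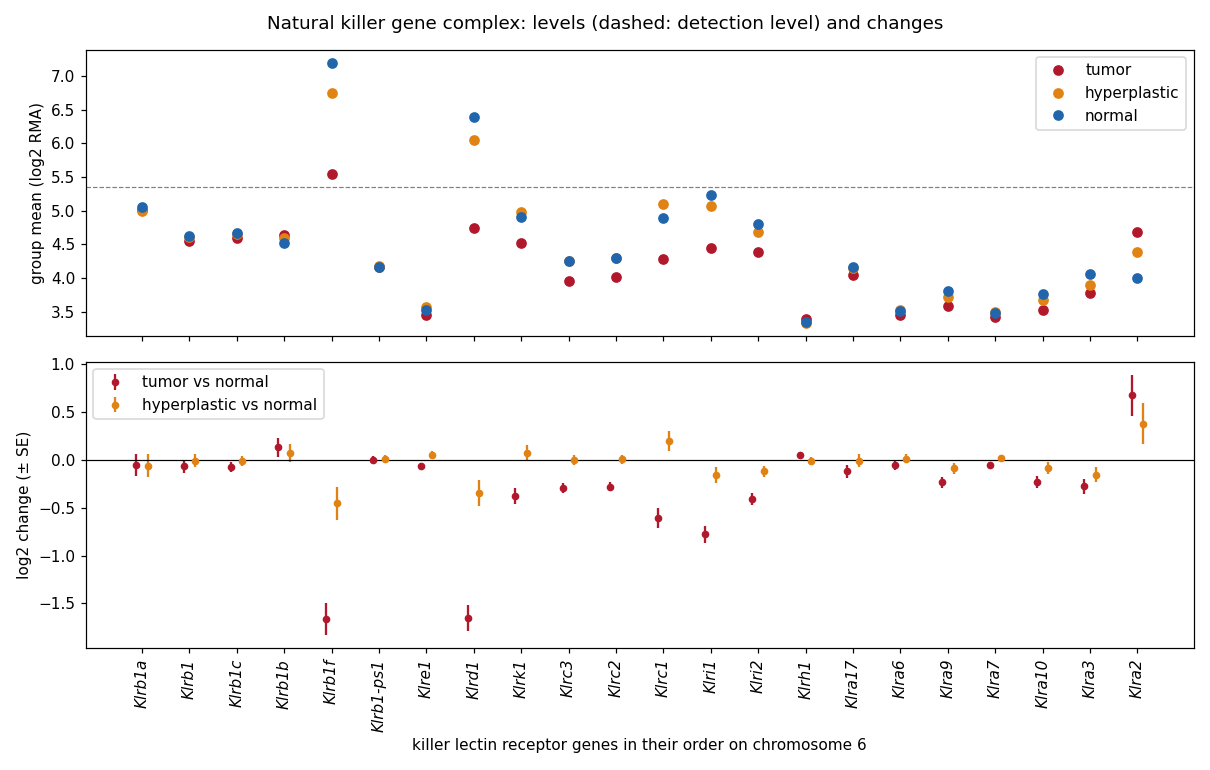
Killer lectin receptor genes in their order on chromosome 6: group means (upper panel, log2 RMA, dashed line at the detection level) and log2 change with its SE against normal glands (lower panel) for tumors and hyperplastic glands. Klrb1f and Klrd1, at -1.66 and -1.65 in tumors, stand clear of their neighbours, and Klra2 is the gene above 0 that was called.

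The Ly49 receptors (Klra), which read classical MHC class I in mice, were at the floor: none of the 7 Klra genes with a cluster of their own had a mean above the detection level. Klra3, Klra9 and Klra10 were called lower in tumors than in normal glands, by 0.28, 0.23 and 0.23, and no Klra gene was called against hyperplastic glands. These receptors are near copies of each other, so that a probe may read several of them. A further 4 clusters named for several Klra genes had differences of -0.10 to 0.03 against normal glands and none was called.

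Klra2 encodes Ly49B, which in mice is known from myeloid cells rather than NK cells, and it was the exception. It had a lowest, median and highest level of 4.17, 4.61 and 5.60 in tumors, 3.98, 4.25 and 5.22 in hyperplastic glands, and 3.95, 4.01 and 4.06 in normal glands. All tumors were above all normal glands, while 1 tumor, tumor 3, exceeded the detection level. The change against normal glands was 0.67 (SE 0.22, adjusted p = 0.0221). The call ended without tumors 3 and 6 and after centring on reference genes (0.47, adjusted p = 0.0668). The mean of 9 macrophage genes was highest on the same arrays: among tumors in tumor 3 (10.39, with Klra2 at 5.60) and tumor 6 (9.45, with 4.86), and among hyperplastic glands in hyperplastic 3 (9.42, with 5.22). Below these arrays the 2 orders differed. Tumor 1 had a macrophage mean of 8.99 with the lowest Klra2 of the tumors (4.17), and tumor 5 had 8.70 with 4.64. Hyperplastic 1 had 9.07 with 4.29, and hyperplastic 5 had 8.87 with 4.55. The part of macrophages in the Klra2 signal was not tested.

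Ncr1 encodes NKp46, an activating receptor that marks NK cells and related innate lymphocytes in mice. It had a lowest, median and highest level of 5.10, 5.24 and 5.38 in tumors, 5.52, 5.78 and 6.12 in hyperplastic glands, and 5.80, 5.99 and 6.14 in normal glands. All tumors were below all glands, and 1 of 6 tumors was above the detection level. The change was -0.74 against normal glands (SE 0.09, adjusted p = 9.83e-06) and -0.54 against hyperplastic glands (SE 0.09, adjusted p = 0.000504). Hyperplastic glands differed from normal glands by -0.20 (adjusted p = 0.356).

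Nkg7 and Prf1, genes of the granules, were called lower as well. Nkg7, a membrane protein of cytotoxic granules, had a lowest, median and highest level of 6.58, 6.75 and 7.31 in tumors, 7.26, 7.89 and 8.19 in hyperplastic glands, and 7.08, 7.43 and 7.75 in normal glands. Tumor 5 was the tumor that reached into the range of the glands. Nkg7 was 2.01-fold lower in tumors than in hyperplastic glands (-1.0, SE 0.15, adjusted p = 0.000122) and 1.51-fold lower than in normal glands (-0.59, SE 0.15, adjusted p = 0.00476). Hyperplastic glands were 0.41 log2 units above normal glands, which did not pass (adjusted p = 0.188).

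Prf1, the pore-forming perforin, changed by a smaller amount. It ran from 5.76 to 6.15 in tumors (median 6.03), from 6.05 to 6.62 in hyperplastic glands (median 6.41) and from 6.09 to 6.57 in normal glands (median 6.42). The lowest glands overlapped the highest tumors, and all arrays were above the detection level. Prf1 was 1.30-fold lower in tumors than in normal glands (-0.38, SE 0.11, adjusted p = 0.0092) and, at the same rounded fold, lower than in hyperplastic glands (-0.37, SE 0.11, adjusted p = 0.017).

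Of the 8 granzymes, Gzma alone was called lower in tumors against both kinds of gland. The median change over the 8 was 0.08 against normal glands and 0.02 against hyperplastic glands. Gzma encodes a tryptase-like granzyme abundant in resting NK cells, and its lowest, median and highest levels were 5.40, 5.66 and 5.79 in tumors, 6.19, 6.44 and 7.03 in hyperplastic glands, and 6.26, 6.40 and 6.57 in normal glands. Tumors lay below all glands. The fall was 1.73-fold against normal glands (-0.79, SE 0.12, adjusted p = 5.23e-05) and 1.86-fold against hyperplastic glands (-0.90, SE 0.12, adjusted p = 4.3e-05). Gzmk, also on chromosome 13, stayed below the detection level on all arrays and was called lower in tumors against hyperplastic glands only (-0.28, SE 0.06, adjusted p = 0.00207), with a difference of 0.08 against normal glands (adjusted p = 0.306).

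Gzmb, the aspartate-cutting granzyme that activates caspases, overlapped between all groups. It ran from 5.40 to 6.20 in tumors (median 5.68), from 5.82 to 6.32 in hyperplastic glands (median 6.02) and from 5.79 to 6.04 in normal glands (median 5.86). Tumor 3, at 6.20, was above every normal gland, while tumors 1 and 2, at 5.41 and 5.40, were the lowest of all arrays. The change was -0.17 against normal glands (SE 0.11, adjusted p = 0.283) and -0.33 against hyperplastic glands (SE 0.11, adjusted p = 0.0506), neither of which passed. Without tumor 3 both were called, at -0.27 (adjusted p = 0.0324) and -0.42 (adjusted p = 0.00322).

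The granzymes that lie next to Gzmb on chromosome 14 were not called in any comparison. Tumor 3 had the highest tumor value of Gzmc (5.85), Gzmf (4.74) and Gzmg (5.85), and of a cluster shared by Gzmd and Gzme (5.89). For Gzmc the other tumors ran up to 5.59 in tumor 6, against at most 5.27 in hyperplastic and 5.29 in normal glands. Gzmn stayed between 3.86 and 4.14 on all arrays. The differences of Gzmc, Gzmf and Gzmg from normal glands were 0.18, 0.15 and 0.17 (adjusted p = 0.163, 0.215 and 0.225), and Gzmm on chromosome 10 differed by -0.07 (adjusted p = 0.423). Mcpt4, a mast cell protease gene of the same chromosome 14 stretch, changed by -3.90 against normal glands (adjusted p = 6.06e-09).

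**Figure D4:**
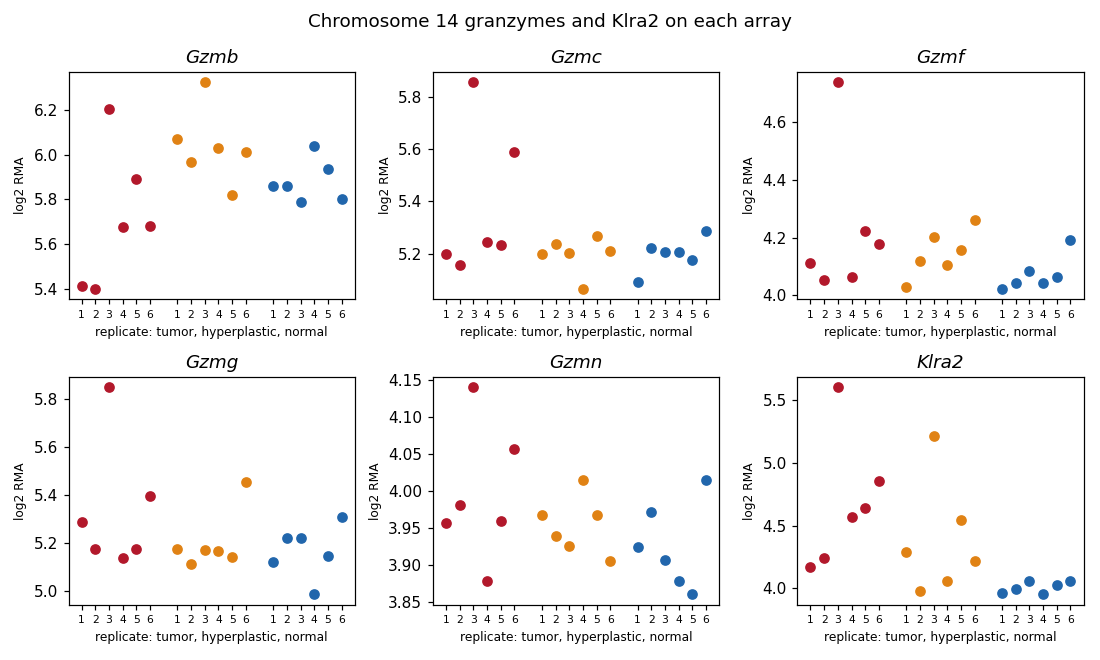
Level (log2 RMA, y axis) of chromosome 14 granzymes and of Klra2 on each array, by replicate number (x axis), with tumors left, hyperplastic glands in the middle and normal glands right; y axes differ between panels. Tumor 3 is the highest tumor in every panel, at 6.20 for Gzmb, 5.85 for Gzmc and 5.60 for Klra2.

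Tumor 3 differed from the other tumors beyond these genes. It was the highest tumor for 14 of the 35 genes, its mean over 11 mammary epithelial genes was 7.81, against 9.71 to 10.67 in the other tumors and 8.98 to 9.96 in the 12 glands, and its macrophage mean was 10.39, against 8.51 to 9.45 in the other tumors. Single arrays stood out among the glands too. Hyperplastic 4 was the lowest hyperplastic gland for 22 of the 35 genes and normal 1 the lowest normal gland for 15, and each had its group's lowest mean over 12 T cell genes, 7.52 and 7.51. Normal 6, the highest normal gland for 18 genes, had the highest T cell mean of its group, 8.41. Hyperplastic 3, highest for 17 genes, had a T cell mean of 8.11 within a range of 7.52 to 8.81.

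Against hyperplastic glands, whose mice had received the same agents, 15 of 35 genes were called lower in tumors, that is 42.9%, beside 8.57% of all genes. None was called higher (limma; 0 of 35 also at an unadjusted p under 0.05 and with limma's trended, robust fit), beside 11.9% of all genes. Tumors lay below all hyperplastic glands for 11 genes, against 4.05% of all genes, and above them for 0, against 4.99%. The median change was -0.12 over the 35 genes and 0.04 over all genes. Of the 15 lower genes, Klrb1f, Klrd1, Gzma, Prf1, Nkg7 and Ncr1 had a mean above the detection level over all arrays, and the others lay below it. The comparisons of tumors with hyperplastic and with normal glands share the 6 tumors and are not independent.

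Between hyperplastic and normal glands few killer genes were called. By limma 0 of 35 were called lower (3 at an unadjusted p under 0.05, 0 in the trended, robust fit), beside 0.655% of all genes, and 1, Gzmk, was called higher, beside 1.01% of all genes. Gzmk ran from 4.97 to 5.22 in hyperplastic glands and from 4.63 to 4.91 in normal glands. It was the 1 gene without overlap in that direction (2.42% of all genes), and 0 lay without overlap in the other (1.1% of all genes). Its change was 0.36 (SE 0.06, adjusted p = 0.00408), with all values under the detection level. After centring on reference genes 9 of the 35 genes were called lower by limma in hyperplastic glands, beside 12.6% of all genes. Among them were Klrb1f (-0.60, adjusted p = 0.0367), Klrd1 (-0.49, adjusted p = 0.0282) and Ncr1 (-0.34, adjusted p = 0.038). The reference genes themselves had a median difference of 0.17 on the common scale, so this centring shifts all genes down. The log2 differences of the 34 genes not called lay between -0.46 and 0.41. At the 4-fold threshold used with an unadjusted p in the study's methods, 0 of 35 genes passed in any comparison, beside 1%, 0.536% and 0.0259% of all genes in the comparisons of tumor with normal, tumor with hyperplastic and hyperplastic with normal glands.

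Markers of T cells, B cells and mast cells were also lower in tumors. Macrophage genes were more often called higher than lower against normal glands, and neutrophil genes were called near the share of all genes. The mean over 12 T cell genes lay between 6.26 and 6.91 in tumors, 7.52 and 8.81 in hyperplastic glands and 7.51 and 8.41 in normal glands, and 11 of the 12 genes were called lower against normal glands, with a median of -1.70. All 10 B cell genes were lower (median -2.25), as were 9 of 12 pan-leukocyte genes (median -1.09). By contrast, 4 of 9 macrophage genes were higher and 1 lower (median 0.52). Of 9 neutrophil genes 2 were higher and 1 lower (median 0.07), beside 19.5% of all genes higher and 12.7% lower. Against hyperplastic glands 0 macrophage and 0 neutrophil genes were called in either direction. All 7 adipocyte genes were lower in tumors against normal and against hyperplastic glands, with medians of -3.07 and -3.11. Cd3e, of the T cell receptor complex, changed by -2.05 (adjusted p = 3.49e-05), Cd8a, of the coreceptor of cytotoxic T cells, by -1.59 (adjusted p = 4.6e-05), and Ptprc, the pan-leukocyte CD45, by -1.92 (adjusted p = 3.19e-05). The mast cell protease gene Cpa3 changed by -4.49 (adjusted p = 7.97e-08), and 5 of 10 mast cell genes were lower. T cells also express several killer genes, and the share of each cell type in the changes was not tested.

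Set against the pan-leukocyte genes, the killer genes differed in direction. When arrays were centred on the 12 pan-leukocyte genes, the median of all genes moved to 1.14 for tumors against normal glands, so that any gene at the floor rises by construction. Klrb1f and Klrd1 were still lower against normal glands, at -0.56 (adjusted p = 0.0127) and -0.55 (adjusted p = 0.0116), the tumor mean of Klrd1 lying under the detection level. By contrast, Nkg7, Prf1 and Gzmb were higher, at 0.51 (adjusted p = 0.0307), 0.72 (adjusted p = 0.00145) and 0.93 (adjusted p = 0.000106). Gzma, at 0.30, did not pass (adjusted p = 0.188). These 6 values are all below the shift of all genes. Against hyperplastic glands Klrb1f and Klrd1 did not pass under this centring, at -0.07 (adjusted p = 0.747) and -0.17 (adjusted p = 0.422).

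**Figure D5:**
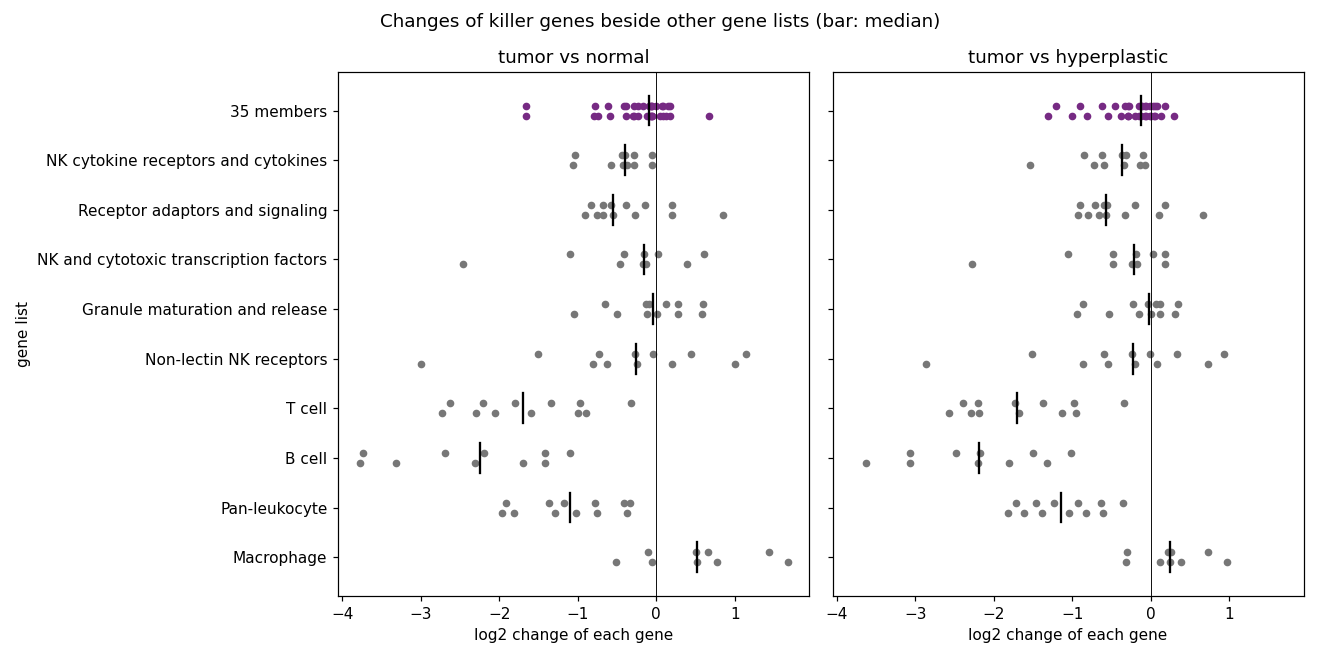
Log2 change of each gene (points, x axis) in tumors against normal glands (left) and against hyperplastic glands (right) for the 35 killer genes and other gene lists (rows), with the median of each list as a bar. Against normal glands the medians are -0.09 for the 35 genes, -1.70 for T cell, -2.25 for B cell and 0.52 for macrophage genes. Under centring on pan-leukocyte genes the change of 8 of 10 named killer genes turned in sign, called or not, and that of Klrb1f and Klrd1 did not. So centred, 94.8% of all genes were called higher against normal glands.

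The gene lists that follow are read beside the 12.7% of all genes called lower and 19.5% called higher in tumors against normal glands. Of 13 genes of receptor adaptors and signaling, 8 were lower, 1 was higher and 4 were not called. Cd247, the zeta chain that couples Ncr1 and the T cell receptor to kinases, changed by -0.90 (adjusted p = 5.91e-05), the kinase Syk by -0.83 (adjusted p = 0.00309) and the scaffold Lcp2 by -0.75 (adjusted p = 0.00759). Fcer1g, the gamma chain shared by Fc receptors of myeloid and NK cells, was higher by 0.85 (adjusted p = 0.00957). Hcst and Tyrobp, the DAP10 and DAP12 adaptors of NKG2D in mice, were looked at after their values had been seen: Hcst changed by -0.27 (adjusted p = 0.049) and Tyrobp, which myeloid cells also use, differed by 0.20 (adjusted p = 0.616).

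Of 11 genes for the cytokines and cytokine receptors of NK cells, 7 were lower in tumors than in normal glands and 0 higher. Il2rb, the beta chain through which NK cells receive interleukin 15, had a lowest, median and highest level of 6.38, 6.54 and 7.06 in tumors, 7.64, 8.36 and 8.49 in hyperplastic glands, and 7.28, 7.76 and 8.01 in normal glands. Tumors lay below all glands, 2.08-fold lower than normal (-1.06, SE 0.16, adjusted p = 6.61e-05) and 2.90-fold lower than hyperplastic glands (-1.54, SE 0.16, adjusted p = 4.75e-06). Il18r1, the interleukin 18 receptor, Il21r, the interleukin 21 receptor, and Il15ra, which presents interleukin 15, changed by -1.04 (adjusted p = 0.00158), -0.57 (adjusted p = 0.0106) and -0.42 (adjusted p = 0.000982). Ifng, the interferon that killer cells secrete, was under the detection level on all arrays and was called lower against hyperplastic glands (-0.38, adjusted p = 0.00304) and not against normal glands (-0.17, adjusted p = 0.137).

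Of 10 transcription factors of killer cells, 4 were lower and 0 higher in tumors than in normal glands. Eomes, a T-box factor of mature NK and memory CD8+ T cells, changed by -0.41 (adjusted p = 0.00133), while the T-box factor T-bet (Tbx21) differed by -0.16 and did not pass (adjusted p = 0.0611). Ikzf3, a factor of lymphocytes of several kinds, changed by -2.47 (adjusted p = 2.83e-07), Ets1 by -1.10 (adjusted p = 1.46e-05) and Tox by -0.46 (adjusted p = 0.0316).

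Of 12 genes that mature or release granules, 3 were lower and 2 higher in tumors than in normal glands. Lyst, which shapes lysosome-related organelles, changed by -1.05 (adjusted p = 4.07e-05) and Cst7, an inhibitor of granule cathepsins, by -0.65 (adjusted p = 0.00127). Ctsc, the cathepsin that activates granzymes, was higher by 0.60 (adjusted p = 0.0386), as was the chaperone Calr by 0.58 (adjusted p = 2.56e-05); both are expressed far beyond killer cells. Among 6 serpins that inhibit granzymes or related proteases, 2 were lower against normal glands, Serpinb1a by 1.61 log2 units (adjusted p = 5.5e-05) and Serpina3n by 0.74 (adjusted p = 0.0463), and Serpinb9, the inhibitor of granzyme B, was called lower against hyperplastic glands alone (-0.49, adjusted p = 0.0427). Among 9 death ligands and effector cytokines 3 were lower and 1 higher, with the chemokine Ccl5 at -1.56 (adjusted p = 5.1e-05) and the death ligand Tnfsf10 (TRAIL) at -0.93 (adjusted p = 0.00688).

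Of 12 NK receptors outside the lectin family, 7 were lower and 2 higher in tumors than in normal glands. Slamf6 and Slamf7, homophilic receptors of lymphocytes, changed by -2.99 (adjusted p = 2.82e-07) and -1.51 (adjusted p = 1.26e-06), and the tumor mean of Slamf6 was under the detection level. The integrin Itga2, also an epithelial gene, was higher by 1.14 (adjusted p = 0.00127), as was Cx3cr1, a chemokine receptor of macrophages and mature NK cells, by 1.00 (adjusted p = 0.0144).

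Ligands of the receptors moved in both directions. Ulbp1, which encodes the NKG2D ligand MULT1, had a lowest, median and highest level of 6.33, 6.72 and 8.82 in tumors, 6.07, 6.30 and 6.74 in hyperplastic glands, and 5.51, 5.80 and 6.08 in normal glands. All tumors were above all normal glands and overlapped the hyperplastic glands. It was 2.46-fold higher in tumors than in normal glands (1.30, SE 0.30, adjusted p = 0.00287), and the change of 0.73 against hyperplastic glands did not pass (adjusted p = 0.102). H60c, the other NKG2D ligand analysed here, differed by 0.08 from normal glands (adjusted p = 0.208) and lay under the detection level on average. Among 12 ligands of other killer receptors, 4 were lower and 3 higher. Clec2i, a lectin that Klrb1f binds and whose gene lies in the same complex, changed by -1.30 (adjusted p = 1.89e-06), Cd48, the ligand of the 2B4 receptor, by -1.12 (adjusted p = 0.000276), Clec2d by -0.65 (adjusted p = 0.00869) and Clec2f by 0.96 (adjusted p = 0.00782).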

How the data were processed

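Gene expression was measured on Affymetrix arrays in 6 tumors, 6 hyperplastic glands and 6 normal glands. The deposited values are log2 expression values made by the authors by robust multi-array averaging (RMA), in which background is removed, all arrays are given the same distribution and median polish summarises the probes of a transcript cluster. Expression Console, RMA and Partek are named, without versions, in the processing notes of the submitters. The study's methods describe a Mouse Gene ST array, whereas the identifiers were those of a later transcript-cluster design. RMA compresses changes near background, and 6 arrays per group limit the precision. Depth does not apply to arrays.

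Of 29266 named clusters, 27309 had 1 symbol and 1957 had several, which were tested apart. For 198 genes with more than 1 cluster that of highest mean was kept, which left 27030 genes. A second deposited table held identical values at all 58776 shared entries. Group means of 18 arrays were compared with limma 3.58.1 in R 4.3.3 (two-sided moderated tests, Benjamini-Hochberg adjustment over 27030 genes, threshold 0.05). The code was tested on simulated data of 27030 genes for the tumor and normal groups, where 96 of 100 genes lowered by a log2 of 1 and 99 of 100 lowered by 2 were recovered. Calls on unchanged genes numbered 14, that is 6.7% of calls, and smaller changes were not simulated. Noise was drawn independently for each gene and each change was imposed in full, also near the floor, so recovery of compressed changes was not measured.

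The members, gene lists and motifs were chosen with earlier results of these data known. Members were described in full where their mean over all arrays exceeded the detection level and they were called in a comparison, and always for Prf1, Ncr1, Nkg7, Klrk1, Klrd1, Klrb1c, Klrg1, Gzma and Gzmb. From each pathway list up to 4 called genes above that level with the largest change between tumor and normal were named, plus Cd3e, Cd8a, Ptprc, Il2rb, Tbx21, Eomes, Ifng, Cpa3 and the NKG2D ligands; other genes named were chosen after their values were seen. Listed genes without a cluster of their own were not analysed here. Alternatives were a filter on the detection level, centring on reference or pan-leukocyte genes, a trended robust fit, separate fits of each pair of groups, the mean of a gene's clusters, a replicate block, each array left out in turn, the threshold of the study's methods and, added later, leaving out tumors 3 and 6.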

Additional observations from a re-analysis of the deposited data

Results flagged for a closer look

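Among 105 sets of 6 values (35 genes in 3 groups), 12 held an array that stood apart from the other 5 by more than Dixon's 95% criterion allows for the range of its group. Chance alone does so in about 1 of 20 sets. Tumor 3 was highest for Gzmf (4.7381, with 4.2246 in the next tumor) and for Gzmg (5.8482, next 5.3938). Tumor 6 was highest for Klrg1 (5.2345, next 5.0219), and tumor 4 lowest for Klrc3 (3.7936, next 3.9473). Among hyperplastic glands, hyperplastic 3 was highest for Klra3 (4.157, next 3.8884) and Klrb1b (4.9632, next 4.5935), hyperplastic 4 lowest for Gzmc (5.0659, next 5.2016) and Klri2 (4.4206, next 4.6744), and hyperplastic 6 highest for Gzmg (5.4521, next 5.1726). Among normal glands, normal 6 was highest in all 3 cases, for Gzmf (4.1924, next 4.0837), Klra17 (4.2852, next 4.1669) and Klrb1 (4.9543, next 4.6295). Apart from Gzmg in tumor 3 and hyperplastic 6, these values lie under the detection level.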

How the results depend on the processing

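With a replicate block 15 of the 35 genes were called lower in tumors against normal glands and 15 against hyperplastic glands, as without it. Whether the replicate numbers pair the samples is not labelled. Same-numbered arrays of different groups deviated with correlations of -0.21 to 0.42 (median 0.04), and 7 of 18 were over 0.1. For arrays with other numbers the correlations were -0.45 to 0.46 (median -0.01), and 20 of 90 were over 0.1. These ranges overlap and cannot decide the question. With 1 array left out the counts ran between 15 and 16 lower and stayed at 1 higher against normal glands, and between 13 and 17 lower and 0 higher against hyperplastic glands; hyperplastic against normal glands stayed at 0 lower and 1 higher. With tests limited to genes whose mean over all 18 arrays was above the detection level, 8 killer genes entered. Of these 6 were lower and 0 higher in tumors against normal glands, and 7 were lower against hyperplastic glands. In the main fit 16.6% and 12.2% of all genes above that level were lower in these 2 comparisons. Klrd1 and Ncr1, with tumor means of 4.74 and 5.23 under the level, entered through their values in glands and are among the falls counted. Under this filter 0 were higher in hyperplastic against normal glands, since Gzmk lies below the level and did not enter. Centring on reference genes gave 27 lower (44.2% of all genes) and 0 higher in tumors against normal glands. It gave 19 lower (10.8%) against hyperplastic glands and 9 lower (12.6%) in hyperplastic against normal glands. Klrb1f (-0.60), Klrd1 (-0.49) and Ncr1 (-0.34) were then called lower in hyperplastic glands. On the common scale the reference genes themselves had medians of 0.24, 0.07 and 0.17 in these comparisons, so this centring shifts all genes down. Centring on pan-leukocyte genes, which raises all other genes by construction, gave 2 lower and 30 higher against normal glands (94.8% of all genes were higher), 0 lower and 30 higher against hyperplastic glands (96% of all genes were higher), and 0 higher in hyperplastic against normal glands. It turned the sign of the change, called or not, for 8 of 10 named genes. In tumors against normal glands these were Gzma (0.30), Ncr1 (0.36), Nkg7 (0.51), Prf1 (0.72), Klrk1 (0.72), Klrb1c (1.02), Klrg1 (1.00) and Gzmb (0.93). Against hyperplastic glands they were Gzma (0.24), Ncr1 (0.59), Nkg7 (0.13), Prf1 (0.76), Klrk1 (0.68), Klrb1c (1.07), Klrg1 (0.93) and Gzmb (0.81). Without tumors 3 and 6, a choice made after seeing the data, 0 genes were higher against normal glands. At the threshold of the study's methods 0 were lower or higher in the comparisons above. Gzmb against hyperplastic glands (adjusted p = 0.0506) was called with the trended, robust fit (adjusted p = 0.0479), with the replicate block (0.0472), among genes above detection (0.038), and without tumor 3, tumor 5 or hyperplastic 5 (0.00322, 0.0386 and 0.0371). For the 10 named genes, 527 of 540 changes with 1 array left out kept their direction and side of the threshold.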
